A study of Mus musculus with 8 samples.

Results

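The cells described here are the mature oligodendrocytes of the mouse striatum, taken as every cell that the deposited annotation of the striatal libraries calls Oligo. They numbered 2345 of the 14690 annotated striatal cells and of the 23687 annotated cells of the series. The study asked how the loss of 1 copy of Setd1a, a histone H3 lysine 4 methyltransferase gene, changes expression in the cell types of striatum and prefrontal cortex (PFC), and measured RNA by droplet single-cell sequencing. It made 8 libraries, 2 per genotype and tissue, and pooled 2 male C57BL/6N mice for each. The labels give an age of 8 to 10 weeks, and the study's methods give an older one. Setd1a+/- mice carried a frameshift deletion in an exon ahead of the SET domain, in every cell of the body. It was made with CRISPR-Cas9 in B6D2F1 zygotes, and 1 founder mutation was then backcrossed to C57BL/6N. The controls were WT littermates, and no group received another treatment. The labels call the tissue NAc, and the study calls it striatum.

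Oligodendrocytes wrap axons of the central nervous system in myelin, a lipid-rich membrane packed with a few abundant proteins, and they supply axons with metabolites. They arise from dividing oligodendrocyte progenitor cells (OPC) through a short-lived newly formed stage (NFO) in which myelin genes switch on. Mature cells are known to differ among themselves, with cells that express Klk6 or Ptgds at opposite ends of that range.

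The annotated cells carried the label's markers. Mog, Opalin and Ermn, which encode myelin or cytoskeletal proteins of mature oligodendrocytes, each had a higher level in every oligodendrocyte library than in any library of the other 9 striatal types, and between 99.8% and 100% of the oligodendrocytes of a striatal library held at least 3 UMIs (unique molecular identifiers, 1 per captured RNA molecule) of the 3 genes together. Levels are given as CPM, the UMIs of a gene in 1000000 UMIs of all oligodendrocytes of a library. They compare a gene between groups, since these counts hold no measure of length.

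One library stands apart. The libraries labelled WT replicate 1, WT replicate 2, Setd1a+/- replicate 1 and Setd1a+/- replicate 2 held 817, 514, 947 and 67 striatal oligodendrocytes, and 1881692, 1181682, 2336295 and 158863 UMIs in them. The main counts below are therefore also given without the library of 67 cells, Setd1a+/- replicate 2, as are several values that moved without it. The log2 fold changes of S100b, Klk6, Nkx2-9, Apod and Opalin between tissues kept their calls without it. The median cell held 2036, 2035, 2124 and 2065 UMIs, and 956, 978, 968 and 964 detected genes. The annotation kept cells of at least 800 genes, and between 34.3% and 36.0% of the oligodendrocytes of a library had under 900, so cells of lower RNA content are not among the annotated cells.

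Markers of other cell types were present. Between 11.3% and 20.9% of the striatal oligodendrocytes of a library held 3 or more UMIs of the markers of another type. The sources used here give no doublet removal. The types counted include newly formed cells, of the same lineage. Their markers alone reached 3 UMIs in 5.39% of the cells of WT replicate 1 and 5.49% of Setd1a+/- replicate 1. The share was higher in WT replicate 2 and was 2.99% in the library of 67 cells. Refits below without cells holding another type's markers leave these cells out too. The 8 markers of medium spiny neurons (MSN), the main neurons of the striatum, summed to 234, 381 and 183 CPM in the first 3 libraries and to 818 CPM in the library of 67 cells. Those sums were 0.0432, 0.0572, 0.0375 and 0.146 of the level in low barcodes of the same library, which are droplets of 1 to 100 UMIs that hold free RNA. The markers of newly formed cells summed to 4.61 to 11.7 times their level in low barcodes of the same striatal library. The oligodendrocytes' own RNA and foreign RNA were not told apart in these counts. Of the cell barcodes, 3 occurred among the oligodendrocytes of a pair of striatal libraries.

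Striatal oligodendrocytes had the highest levels of many genes of myelin and sphingolipid synthesis among the 10 striatal types. Of the 1417 genes with a mean of at least 100 CPM, 202 (14.3%) had a higher level in each of the 4 oligodendrocyte libraries than in any library of the other types. Without the library of 67 cells the number was 250. These are descriptions, since the annotation was built from the same genes.

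By the ratio of the lowest oligodendrocyte library to the highest library of any other type, each with 1 CPM added, Klk6, a secreted serine protease of the kallikrein family, came first with a ratio of 57.4. Its levels were 536, 668, 537 and 906 CPM, against at most 8.35 CPM elsewhere. Gjb1, the gap junction protein connexin 32, followed with 17.9. Aspa, which splits N-acetylaspartate into aspartate and acetate for lipid synthesis, had 15.1, and its highest level outside oligodendrocytes, 45.9 CPM, was in newly formed cells. The other named genes were Pls1 (13.1), which bundles actin, Pdlim2 (11.6), Apod (10.8), a lipid-binding protein, Opalin (9.64), Kctd13 (9.51), Cyp2j12 (9.49), C030029H02Rik (9.27), Tnni1 (8.50) and Trf (8.06), the iron carrier transferrin.

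**Figure D1:**
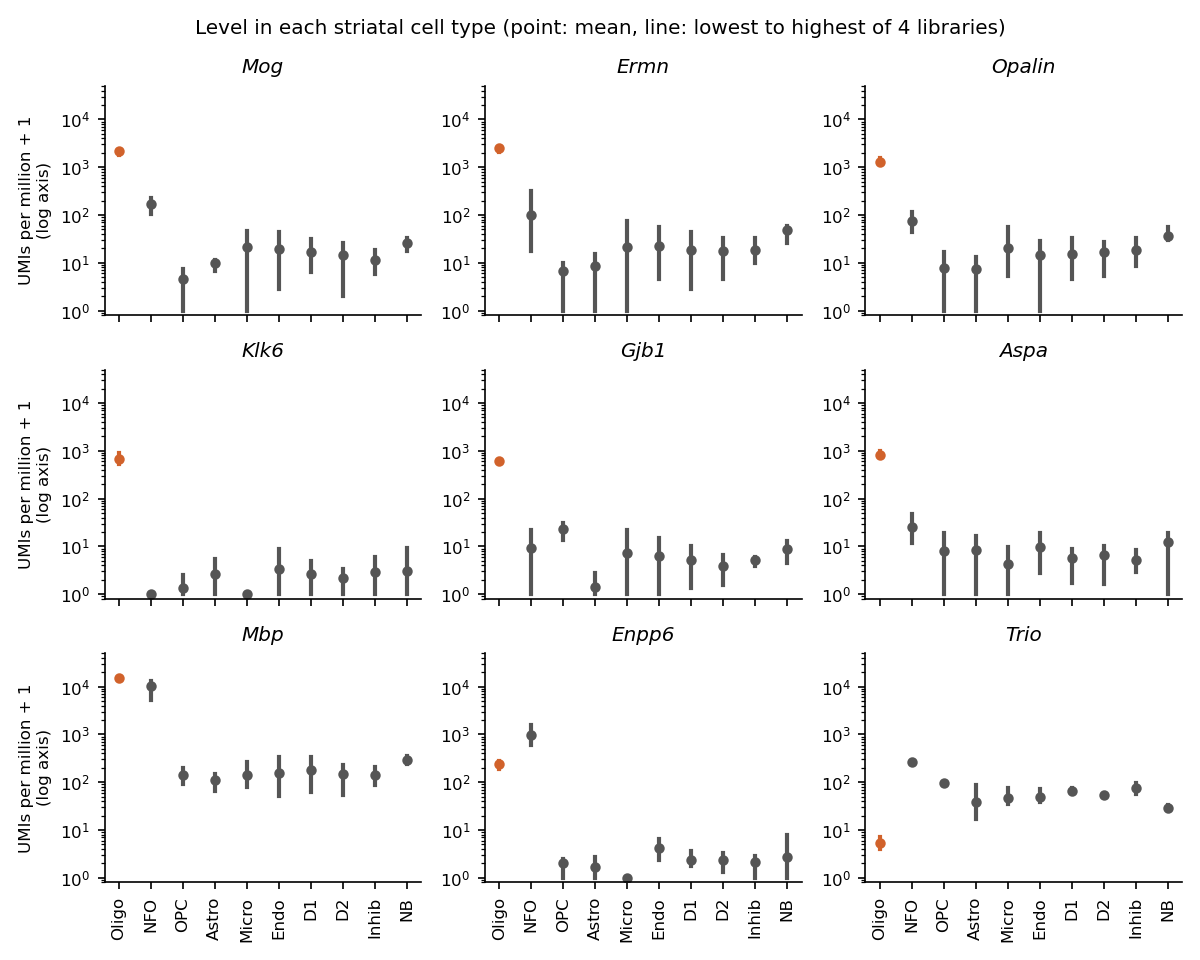
CPM plus 1 (log axis) of 9 genes in the 10 annotated striatal cell types, with the mean of 4 libraries as a point and the range from the lowest to the highest library as a line. Mog, Ermn, Opalin, Klk6, Gjb1 and Aspa are highest in oligodendrocytes (orange), Mbp is nearly as high in newly formed cells, Enpp6 is higher there, and Trio is lowest in oligodendrocytes.

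A second group of genes was shared with newly formed oligodendrocytes and set both apart from the rest. Mbp, a main protein of compact myelin, had 13389 to 16653 CPM in oligodendrocytes. In newly formed cells it reached 12893 CPM, and in any other type at most 352 CPM. With newly formed cells left out, the ratios were 38.6 for Mog, 37.9 for Mbp, 27.6 for Ermn, 25.0 for Mag, 24.7 for Enpp6, 23.6 for Tmem125 and 21.9 for 1700063D05Rik. Enpp6, a choline phosphodiesterase known as a marker of newly formed cells, went the other way between the stages, with 189 to 278 CPM in mature cells and up to 1546 CPM in newly formed ones.

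Members of the myelin list made up 8.67%, 8.44%, 8.95% and 7.13% of all UMIs of striatal oligodendrocytes in the 4 libraries, against 3.63% to 5.45% in newly formed cells. Of its 24 members, 18 had their highest mean level in oligodendrocytes, as did 8.22% of the 15110 genes with a UMI in these cells. Mobp, a myelin protein of the oligodendrocyte, had 3034 to 6305 CPM against at most 631 CPM in newly formed cells. Members outside the pattern included Cd9, a tetraspanin, with 705 to 1096 CPM in mature cells and up to 8148 CPM in newly formed ones, and Nfasc, an adhesion protein of the node and paranode, with 98.2 to 212 CPM against up to 1191 CPM. Myoc had no UMI in any of the 4 oligodendrocyte libraries.

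Of 20 genes of sphingolipid and fatty acid synthesis, 12 were highest in oligodendrocytes by their mean. Ugt8a, which makes the myelin lipid galactosylceramide, had 535 to 607 CPM against at most 298 CPM in another type, and Cers2, a ceramide synthase of very long chains, had 522 to 736 CPM against at most 186 CPM. Of 26 genes of cholesterol synthesis 3, Cyp51, Ebp and Sc5d, were highest in oligodendrocytes, a share near the 8.22% of all genes with a UMI. Hmgcs1, which makes the precursor of mevalonate, had 119 to 197 CPM in oligodendrocytes and up to 210 CPM in newly formed cells.

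Of 20 genes of iron handling and metabolic support, 8 were highest in oligodendrocytes. Fth1, the iron-storing ferritin heavy chain, had 30951 to 40680 CPM against at most 4396 CPM in another type, the latter in microglia. Trf had 7774 to 10628 CPM against 964 CPM, also in microglia. Car2, a carbonic anhydrase, had 4488 to 6989 CPM against 821 CPM, the latter in astrocytes.

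Of 18 transcription factors of the lineage, 4 were highest in oligodendrocytes by their mean (Nkx6-2, Myrf, Zfp536 and St18), against 8.22% of all genes with a UMI in these cells. Myrf, which drives myelin gene expression, had 101 to 145 CPM and reached 142 CPM in newly formed cells. Sox10, which marks the whole lineage, had 187 to 227 CPM in mature cells and up to 665 CPM in newly formed ones, and Tcf7l2, known from the step before myelination, fell from a mean of 477 CPM there to at most 32.2 CPM in a mature library. Olig2, needed for progenitor fate, was at 18.9 to 23.7 CPM, against a mean of 127 CPM in progenitors.

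Of 29 channels, receptors and axon signaling genes, 9 were highest in oligodendrocytes. S1pr5, a sphingosine 1-phosphate receptor, had 32.9 to 81.8 CPM and at most 2.54 CPM in another type. Gpr37 had 409 to 524 CPM against 60.1 CPM, and Lpar1, a lysophosphatidic acid receptor, 397 to 690 CPM against 96.6 CPM. No member of the lists of immediate early genes, H3K4 methylation enzymes and oxidative phosphorylation had its highest mean there. Of the 15 heat shock genes 1, Cryab, a small heat shock protein, did, also a share near that of all genes, with 4765 to 7475 CPM against at most 2785 CPM.

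The genes lowest in oligodendrocytes, by the ratio of the lowest library of any other type to the highest oligodendrocyte library, were Fchsd2 (3.57), Trio (2.37), Sfxn1 (2.37), Zeb1 (2.22) and Bhlhb9 (2.16). Zeb1, a repressor of transcription, had 0 to 6.85 CPM in oligodendrocytes and a mean of 265 CPM in progenitors. Trio, a guanine nucleotide exchange factor that acts on the cytoskeleton, had 3.00 to 6.29 CPM and a mean of 269 CPM in newly formed cells.

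Mature striatal oligodendrocytes were not uniform. Since a deeper cell is more likely to show a UMI, each cell was thinned to 1000 UMIs, and no cell was too shallow for this. A UMI of Klk6 was then found in 23.1%, 28.4%, 24.9% and 49.3% of the oligodendrocytes of the 4 striatal libraries, in the order given above, with 95% Wilson intervals of 20.4% to 26.1%, 24.7% to 32.5%, 22.3% to 27.8% and 37.7% to 60.9%, which cover counting error only. Without thinning the shares were 32.2%, 40.1%, 33.6% and 56.7%. In D1 neurons, which should lack the gene, the thinned shares lay between 0 and 0.195% and the unthinned ones between 0 and 0.858%, at a median of 2657 to 3664 UMIs per cell against 2035 to 2124 in oligodendrocytes.

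Cells with and without a Klk6 UMI differed in other genes, in the same way in every library. S100b, a calcium-binding protein, had 2713 to 3235 CPM in the Klk6 cells of the 4 striatal libraries and 311 to 448 CPM in the others. Anxa5, a calcium-dependent membrane-binding protein, had 261 to 396 CPM against 28.3 to 45.6 CPM, and Rab37, a small GTPase, 66.7 to 82.5 CPM against 8, 7, 7 and 0 UMIs in all the other cells of the 4 libraries. Nkx2-9, a homeobox transcription factor, had 114 to 166 CPM against 10.8 to 42.4 CPM.

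The opposite was seen for Ptgds, Opalin and Il33. Ptgds, prostaglandin D2 synthase, had 747 to 1067 CPM in Klk6 cells and 5708 to 8264 CPM in the rest. Opalin had 254 to 375 CPM against 1730 to 2334 CPM, and Il33, a nuclear cytokine, 250 to 332 CPM against 706 to 1883 CPM. Of the other members of the myelin list, 4 were compared between cells with and without a Klk6 UMI. None of them was lower in the Klk6 cells of every striatal library. Mbp was 1.08 to 1.12 times as high in Klk6 cells, Ermn 1.21 to 1.74 times, Mog 0.685 to 1.02 times and Hapln2, at 6.17 to 56.5 CPM in the rest, 0.804 to 4.25 times. Fth1 was 1.40 to 1.99 times as high, and Trf 1.60 to 2.49 times. Other genes listed as differing among mature oligodendrocytes did not all follow Ptgds. In the striatal libraries Apod was 2.18 to 3.16 times as high in Klk6 cells, and Car2 0.912 to 1.48 times. Neat1 was 0.932 to 2.61 times as high there, and Grm3 0.603 to 0.851 times.

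This split was made after the values were seen and carries no test. The Klk6 cells were also the deeper ones, with a median of 2372, 2481, 2519.5 and 2142 UMIs against 1932, 1815.5, 1961 and 1998. In all 4 PFC libraries S100b, Anxa5, Rab37 and Nkx2-9 were likewise higher and Ptgds, Opalin and Il33 lower in Klk6 cells, with 1141 to 1609 CPM of S100b in Klk6 cells against 122 to 195 CPM, and 998 to 1935 CPM of Ptgds against 8504 to 14423 CPM.

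**Figure D2:**
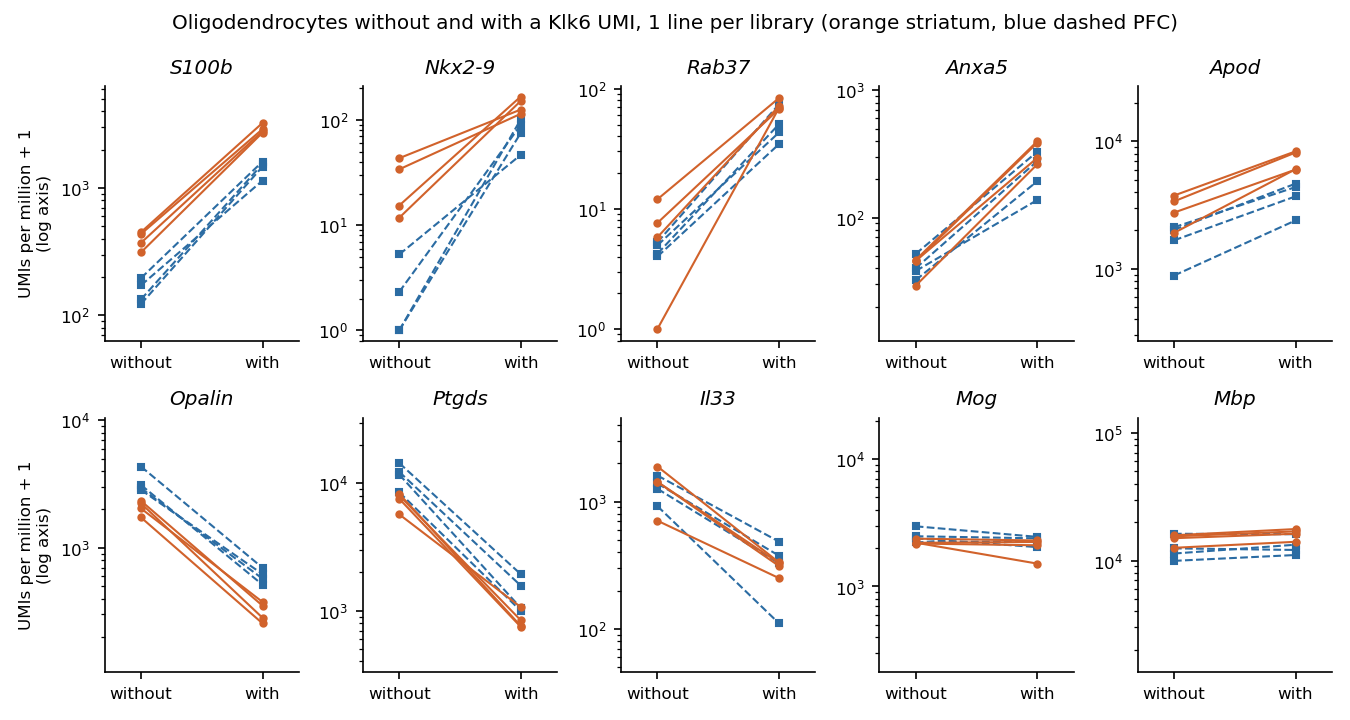
CPM plus 1 (log axis) of 10 genes in oligodendrocytes without and with a Klk6 UMI, each line 1 of 8 libraries (orange: striatum, blue dashed: PFC). S100b, Nkx2-9, Rab37, Anxa5 and Apod are higher in Klk6 cells in all 8 libraries, Opalin, Ptgds and Il33 are lower, and Mog and Mbp lie almost level.

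Klk6 and Opalin stand for these opposite groups of cells, and the sequences ahead of their start sites are shown for that reason. Each line gives the 250 bases before the RefSeq start, in assembly GRCm38.p6 and read along the gene's strand, with capitals where the letters ACAAAG or ACAATG, a core that SOX factors are known to bind, stand on either strand. Klk6 lies on chr7, strand +, with these bases at chr7:43824294-43824543, ahead of the first of its RefSeq start sites. The window ahead of its other start site, at chr7:43825200-43825449, held 0 of these motifs and is not printed. Opalin lies on chr19, strand -, with these bases at chr19:41077114-41077363. Such letters occurred in 25.2% of the 32851 RefSeq promoter windows of the same length, and a match is a description of the sequence, not a site.
Klk6: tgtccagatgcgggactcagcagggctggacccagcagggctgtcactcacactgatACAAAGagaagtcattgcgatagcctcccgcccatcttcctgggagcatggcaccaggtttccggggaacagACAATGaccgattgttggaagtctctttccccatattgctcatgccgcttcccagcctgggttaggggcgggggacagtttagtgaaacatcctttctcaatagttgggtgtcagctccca
Opalin: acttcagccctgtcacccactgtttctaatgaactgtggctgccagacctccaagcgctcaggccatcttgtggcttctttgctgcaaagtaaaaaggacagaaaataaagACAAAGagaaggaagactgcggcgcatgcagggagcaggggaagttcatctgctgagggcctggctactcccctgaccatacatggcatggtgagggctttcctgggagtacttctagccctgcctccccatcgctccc

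Oligodendrocytes of the striatum were then compared with the 1694 of the PFC, to ask which genes differ with the tissue. The comparison used the UMIs summed per library, 4 libraries against 4 with genotype as a covariate, in edgeR's quasi-likelihood test. A gene was called at a Benjamini-Hochberg adjusted p under 0.05 and a fold above 2. Of 6918 genes tested, 124 (1.79%) were called, 65 higher in striatum (0.94%) and 59 higher in PFC (0.853%). By the adjusted p alone 187 (2.7%) passed, 1.34% of the tested genes higher in striatum and 1.36% in PFC. Without the library of 67 cells 148 were called, and 108 of the 124 were among them. With the replicate number as a block it was 217, though the sources do not link the replicate numbers of striatum to those of PFC. Leaving out 1 library at a time, the count ranged from 48, without WT replicate 2 of the striatum, to 223, without Setd1a+/- replicate 2 of the PFC.

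The striatal cells had more of the RNAs of the Klk6 end of the range. S100b was at 1236, 1568, 1495 and 1643 CPM in the striatal libraries, and at 307, 385, 326 and 283 CPM in the PFC libraries of the same order. No library of either tissue reached the range of the other, as held for 112 of the 124 genes. Over all genes tested, 4.42% were higher in every striatal than in every PFC library and 6.74% the reverse. The means were 1485 ± 177 and 325 ± 43.9 CPM (SD, n = 4 each), a log2 fold change of 2.23 (SE 0.17, adjusted p = 7.09e-05 in edgeR).

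Klk6 was at 536, 668, 537 and 906 CPM in striatum and at 93.9, 163, 164 and 103 CPM in PFC, again without overlap, with a log2 fold change of 2.37 (SE 0.24, adjusted p = 0.000686 in edgeR). The thinned share of PFC oligodendrocytes with a Klk6 UMI was 5.64%, 10.1%, 13.7% and 6.54%, below every striatal library. Nkx2-9 was at 61.1, 70.2, 71.5 and 88.1 CPM in striatum and at 12.2, 9.85, 15.3 and 8.57 CPM in PFC, a log2 fold change of 2.63 (SE 0.22, adjusted p = 0.000106 in edgeR). Among the 24 genes named for the comparison, the 12 of largest fold in each direction, Klk6 and Nkx2-9 were the ones whose mean lay above their level in low barcodes of the same tissue.

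Opalin and Ptgds, of the other end, were lower in striatum. Opalin was at 1531, 1418, 1176 and 1114 CPM in striatum and at 2645, 2758, 3784 and 2589 CPM in PFC, a log2 fold change of -1.12 (SE 0.18, adjusted p = 0.00801 in edgeR). Ptgds was at 5120, 4801, 5335 and 3135 CPM in striatum and at 10975, 10281, 7362 and 12985 CPM in PFC, a log2 fold change of -1.13 (SE 0.22, adjusted p = 0.0182 in edgeR). In neither gene did the tissues overlap. The call of Opalin was lost without Setd1a+/- replicate 1 of the PFC, at a log2 fold change of -0.96. That of Ptgds was lost without any 1 of 5 libraries, at -0.91 to -1.18, among them the library of 67 cells (-0.96).

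Il33 was not called, with 453 to 1167 CPM in striatum and 810 to 1471 CPM in PFC and a log2 fold change of -0.29 (adjusted p = 0.618 in edgeR). Mog also overlapped, with means of 2130 ± 223 and 2479 ± 287 CPM (SD, n = 4 each), and was not called (adjusted p = 0.619 in edgeR).

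**Figure D3:**
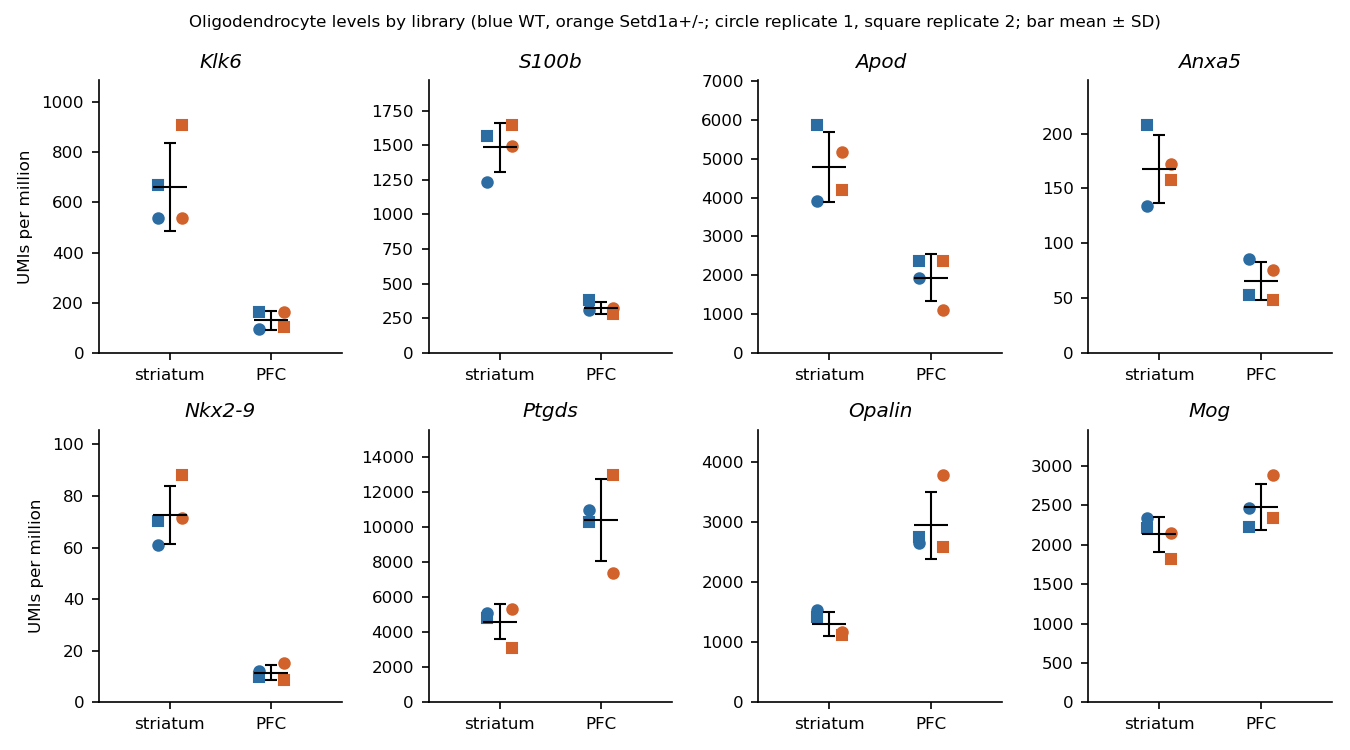
CPM of 8 genes in the oligodendrocytes of each of the 8 libraries, by tissue (blue: WT, orange: Setd1a+/-, circle: replicate 1, square: replicate 2, black bar: mean and SD of 4 libraries). The tissues do not overlap for Klk6, S100b, Apod, Anxa5, Nkx2-9, Ptgds and Opalin, and they overlap for Mog.

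Of the 17 genes listed as differing among mature oligodendrocytes, 16 were tested. Higher in striatum were 6 (Klk6, Hopx, Anxa5, Mgst3, S100b and Apod) and lower were 3 (Ptgds, Jph4 and Opalin), against the 1.79% called over all genes. This list, like the others, was chosen with earlier results of these data known. Its share is therefore a description and no test of the list. Since its members go both ways, the median of the list, 0.35 against -0.01 over all genes tested, carries little, and it was 0.09 without cells holding another type's markers. Apod had means of 4783 ± 896 and 1943 ± 594 CPM (SD, n = 4 each) and a log2 fold change of 1.35 (adjusted p = 0.0115 in edgeR), a call lost without WT replicate 2 (1.26) or Setd1a+/- replicate 1 (1.25) of the striatum. Without the library of 67 cells 6 were called higher and 1 lower, and without WT replicate 2 of the striatum 3 were called higher and 1 lower. Other called genes that were higher in the Klk6 cells of every library included Serpind1, an inhibitor of thrombin (log2 fold change 1.87), Selenop, which carries selenium (1.07), and Tppp3 (1.12), which binds tubulin.

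In the 5759 genes that could be tested in cells without a Klk6 UMI, S100b was called (log2 fold change 1.40, SE 0.21, adjusted p = 0.00888 in edgeR). Opalin (-0.64, adjusted p = 0.183), Ptgds (-0.64, adjusted p = 0.211) and Anxa5 (0.17, adjusted p = 0.794) were not. In all, 23 genes were called in these cells, 20 of them among the 124, and in cells with a Klk6 UMI 10 of 2326 genes were called, 6 of them among the 124. In the latter cells Opalin (-0.91, adjusted p = 0.0478) and Apod (0.96, adjusted p = 0.0293) passed the adjusted p in edgeR but not the fold. Fewer cells enter these fits, and both were added after the values were seen. The share of cells with a Klk6 UMI rose with depth, so cells without one may include cells that express Klk6. Their part in the calls was not tested.

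Of 22 tested members of the myelin list, 1 was called, Opalin, and it was lost without Setd1a+/- replicate 1 of the PFC. At an unadjusted p under 0.05, 3 members were higher and 6 lower in striatum, against 8.46% and 8.62% of all genes tested. Tspan2 (log2 fold change -0.79, adjusted p = 0.0235) and Cd9 (-0.81, adjusted p = 0.0339), both tetraspanins, passed the adjusted p in edgeR but not the fold. Of genes of cholesterol synthesis, the median of 25 tested members was -0.40, and 12 had an unadjusted p under 0.05 with a lower level in striatum, against 8.62% of all genes tested. Hmgcs1 was called, with means of 145 ± 35.6 and 331 ± 81.6 CPM (SD, n = 4 each). The call was lost without WT replicate 1 or 2 of the striatum or replicate 1 of either genotype of the PFC. Msmo1 (-0.86), Insig1 (-0.75) and Idi1 (-0.67) passed the adjusted p alone. Low barcodes held 78.0 CPM of Hmgcs1 in striatum and 215 CPM in PFC. The sum of the list was 1.49 to 1.90 times that in low barcodes in striatum, and 1.41 to 2.07 times in PFC. The part of free RNA in the lower level of the list in striatum was not tested.

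Of 17 tested genes of iron handling and metabolic support, 1 was called higher (Apod) and 2 lower (Ptgds and Tfrc) in striatum. Of all genes 0.94% and 0.853% were so called, and of the list 0 without WT replicate 2 of the striatum. Apod and Ptgds were already counted above among the genes that differ among mature oligodendrocytes. Fth1 passed the adjusted p but not the fold, with a log2 fold change of 0.69 (adjusted p = 0.0301 in edgeR). Tfrc, the receptor that takes up transferrin, had one of -1.72 (adjusted p = 0.00763 in edgeR). Tfrc was at 14.9, 13.5, 14.1 and 37.8 CPM in striatum and at 66.1, 45.6, 39.5 and 58.6 CPM in PFC, where low barcodes held 66.3 CPM. Of the 12 tested transcription factors of the lineage, 0 were called in edgeR, with 1 in each direction at an unadjusted p under 0.05, and 0 in DESeq2. With the replicate number as a block 1 was called, lower in striatum, and 4 higher and 3 lower had such a p. Of all 6918 genes in that fit 217 were called and 1518 had such a p. Called under the block was Id2, an inhibitor of basic helix-loop-helix factors, named here after its values were seen. Without the block its log2 fold change was -1.29 (adjusted p = 0.0505 in edgeR). Id2 was at 4.78, 6.77, 4.28 and 6.29 CPM in striatum and at 12.2, 12.3, 16.6 and 12.9 CPM in PFC, below the 43.7 and 195 CPM of the low barcodes. It was also called with unscaled library totals and without the genotype term, and with no count filter 1 factor was called in each direction.

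Immediate early genes respond within minutes to stimulation or cell handling. Of 11 tested, 2 were called and 6 had an unadjusted p under 0.05, all higher in striatum, against 8.46% of all genes. Fos, a subunit of the AP-1 factor, was at 180, 223, 238 and 151 CPM in striatum and at 52.2, 82.5, 38.2 and 21.4 CPM in PFC (log2 fold change 2.16, adjusted p = 0.00188 in edgeR), with 270 CPM in low barcodes of striatum and 334 CPM in those of PFC. Junb was the other called gene (1.98, adjusted p = 0.0358 in edgeR), at 18.1, 26.2, 20.1 and 6.29 CPM in striatum and 3.48, 11.1, 1.27 and 7.14 CPM in PFC, so that the tissues overlapped. Low barcodes held 250 CPM of it in striatum and 162 CPM in PFC. Among genes above their low barcode level, 0 immediate early genes could be tested. The median of the list was 0.86, but 0.29 without cells holding another type's markers (3 of 8 tested at an unadjusted p under 0.05) and 0.24 without Setd1a+/- replicate 1 of the striatum (2 of 9). The 12 tested heat shock genes were all higher in striatum by their fold, with a median of 0.49, and 6 had an unadjusted p under 0.05, but 0 were called in edgeR or in DESeq2. Without Setd1a+/- replicate 1 of the striatum 1 had such a p, and without the library of 67 cells 10 of 13 had, with 1 called. Over all genes such a p was found for 941 of 6723 and 1356 of 7687, the latter with 148 called. Without cells holding another type's markers it was found for 1076 of 6293. The methods give a longer papain digestion for striatum than for PFC, whereas the labels give 1 range for all samples. If the methods hold, tissue and digestion cannot be told apart.

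The largest folds belonged to markers of other cell types. Named beside Klk6 and Nkx2-9 as higher in striatum were Penk, Cartpt, Ppp1r1b, Pde1b, Rgs9, Tac1, Ptpn5, Scg2 and Nnat, known from neurons. Penk, the precursor of enkephalin, was at 78.1, 141, 59.9 and 308 CPM in striatum, highest in the library of 67 cells, and at 0 to 7.39 CPM in PFC, but at a mean of 1953 CPM in low barcodes of striatum. The 12 named as higher in PFC were Gpr34, Csf1r, Cx3cr1, Ctss, Fcrls, C1qc, Selplg, Fcer1g, Tyrobp, Trem2, C1qb and C1qa, known from microglia.

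The 5 microglial markers summed to 104 to 272 CPM in the PFC libraries and to 11.8 to 20.7 CPM in the striatal ones, with 3 of the 5 at 0 in the library of 67 cells and none at 0 in the other 7 libraries. These sums were 0.188 to 0.937 of those in low barcodes in PFC and 0.0372 to 0.0691 in striatum. Of the genes called, 27 of the 65 higher in striatum and 29 of the 59 higher in PFC had a mean at or below that in low barcodes of the same tissue. Without cells that held 3 or more UMIs of another type's markers 97 genes were called, 78 of them among the 124. S100b, Klk6, Nkx2-9, Apod and Opalin lay above their low barcode level. The part of foreign RNA in the calls, these genes included, was not tested.

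**Figure D4:**
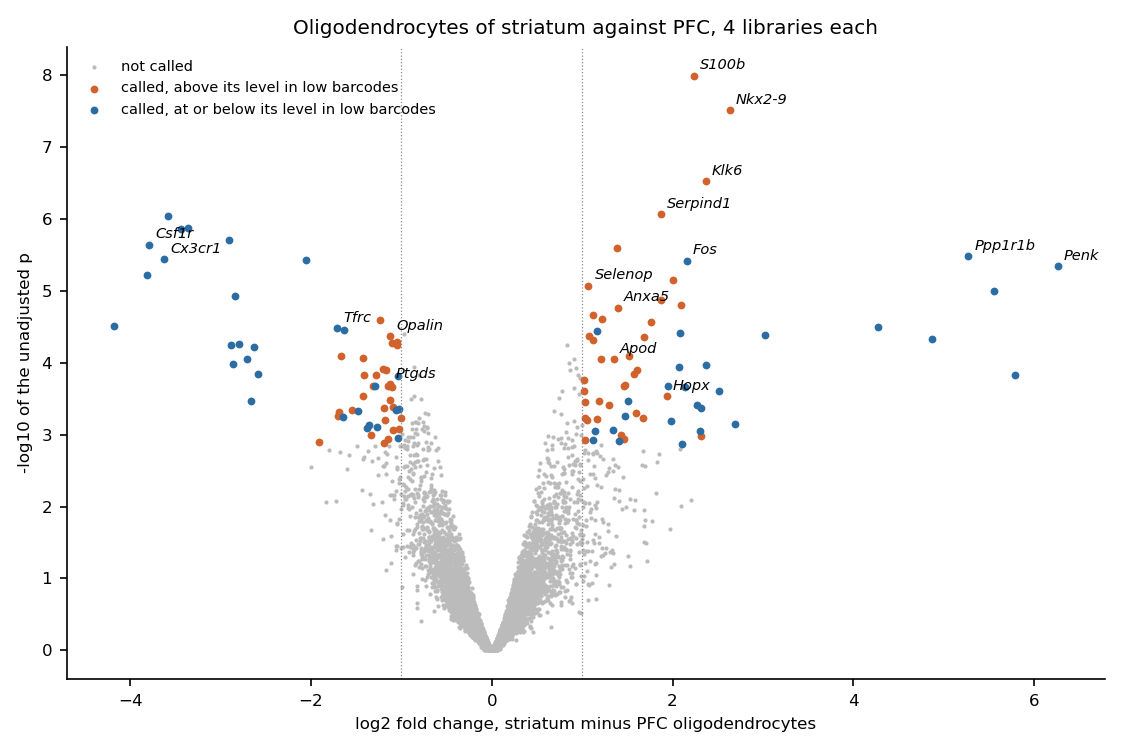
Log2 fold change of striatal minus PFC oligodendrocytes against -log10 of the unadjusted p for 6918 genes, with dotted lines at a fold of 2. Called genes whose mean lies above their level in low barcodes of the higher tissue are orange, and those at or below it, among them Penk, Ppp1r1b, Csf1r and Cx3cr1, are blue.

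The effect of the genotype was compared within the striatum, 2 libraries against 2. Setd1a itself (chr7:127776670-127800122, strand +, GRCm38) had 10 and 18 UMIs in WT oligodendrocytes and 12 and 1 in Setd1a+/- oligodendrocytes, or 5.31, 15.2, 5.14 and 6.29 CPM. The groups overlapped, and the gene was too low to be tested. The files count both alleles under 1 gene, so these values do not check the labels.

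Oligodendrocytes made up 18.7% and 12.7% of the annotated cells of the WT libraries, with 95% Wilson intervals of 17.6% to 19.9% and 11.7% to 13.8%. In the Setd1a+/- libraries they made up 25.0% (23.6% to 26.4%) and 2.69% (2.12% to 3.40%), so that the WT libraries lay between the Setd1a+/- ones. The difference of the means was -1.91 percentage points (exact permutation test, two-sided p = 1, where 2 against 2 libraries cannot go below 0.3333), and it was 9.22 without the library of 67 cells. The medians of UMIs per cell differed by 59 (exact permutation test, two-sided p = 0.3333) and those of genes per cell by -1 (two-sided p = 1 in the same exact test).

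No gene was called between genotypes out of 8014 tested (0%) in edgeR, and 167 (2.08%) had an unadjusted p under 0.05, 84 higher (1.05%) and 83 lower (1.04%) in Setd1a+/-. DESeq2 also called 0, with 16 genes at an unadjusted p under 0.05. On simulated data of the same libraries edgeR called 91.4% of genes changed 4-fold and 6.42% of those changed 2-fold. A call also needs a fold above 2, so a gene changed exactly 2-fold can fail that cutoff at any depth. The parts of the cutoff, the depth and the number of libraries in these misses were not told apart.

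The genes of smallest p were low in most cases. The 5 higher in Setd1a+/- were Gm28322, H2afj, Crip1, Ly6c1 and Btbd16, and the 5 lower were Eif3j2, Gpt, Apoe, Rdm1 and Dnajc17, each with an adjusted p of 0.9999 in edgeR. Apoe, a lipid carrier made mostly by astrocytes, was the one above 100 CPM, at 684 and 949 CPM in the WT libraries against 454 and 277 CPM (log2 fold change -1.07, SE 0.27). Its level in low barcodes of striatum was 471 CPM, and the 5 astrocyte markers summed to 195 and 253 CPM in the WT libraries against 191 and 290 CPM. Crip1, a LIM domain protein, stood at 12.8 and 33.0 CPM in the WT libraries and at 53.5 and 75.5 CPM in the Setd1a+/- ones. These were 24, 39, 125 and 12 UMIs, and its level in low barcodes of striatum was 89.4 CPM. The 4 endothelial markers, Ly6c1 among them, summed to 23.4 and 19.5 CPM in the WT libraries against 47.9 and 37.8 CPM. The 5 mural markers summed to 17.5 and 11.8 CPM against 29.5 and 25.2 CPM. The part of vascular RNA in the named genes was not tested. For Btbd16 the levels were 17.5 and 5.08 CPM (WT) and 36.8 and 37.8 CPM (Setd1a+/-). The genotypes did not overlap for any of these genes, which were chosen by that contrast, nor for 30.7% of all genes tested.

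With the replicate number as a block, the pairing that the methods describe, 10 genes were called, 6 of them higher in Setd1a+/-. They were Hbb-bt, Crip1, Apoe, Gm42418, Pigz, Cap1, Hba-a2, H2afj, Tubb2b and Gm28322, named here after their values were seen. Hbb-bt and Hba-a2 encode hemoglobin chains. The 4 blood markers summed to 357 and 1084 CPM in the WT libraries against 3350 and 88.1 CPM, and of the 4969 Hbb-bs UMIs of Setd1a+/- replicate 1, 97.3% lay in 5 cells. With no block 0 genes were called, with or without cells that held 3 or more UMIs of another type's markers. The block was not run without those cells, so their part in its calls was not tested.

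Without the library of 67 cells 32 genes were called, 20 of them higher in the remaining Setd1a+/- library, which is then assumed to vary like the WT ones. Igkc, Igha and Jchain, chains of antibodies, were among the 7 of smallest p, and 1052 of 1054 Igkc UMIs came from 1 cell. The other 4 of the 7 were hemoglobin genes. Without Setd1a+/- replicate 1 the number was 52, and without a WT library 5 and 3. Beside hemoglobin genes, H2afj, Crip1 and Gm28322 were called both under the block and without the library of 67 cells. Apoe, Gm42418 and Pigz were called both under the block and without Setd1a+/- replicate 1. In the latter fit Hbb-bt and Hba-a2 were lower in Setd1a+/-, opposite to their direction under the block.

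**Figure D5:**
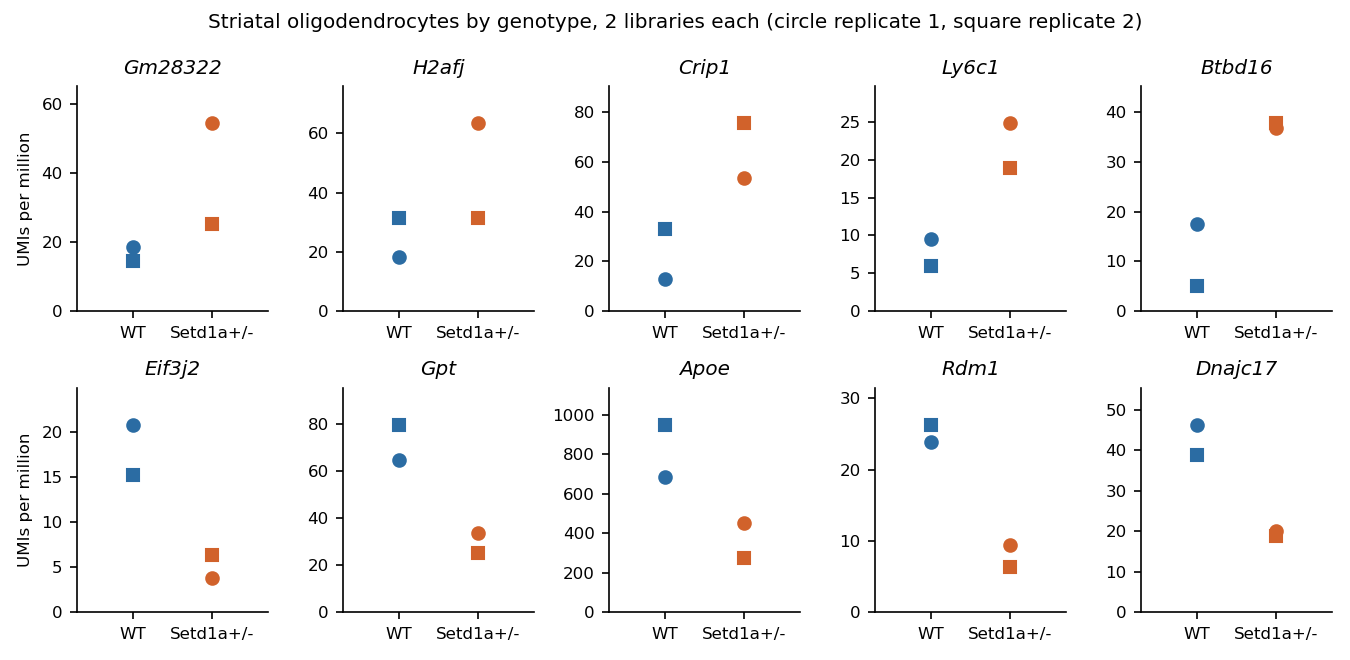
CPM of the 10 genes of smallest p between genotypes in the striatal oligodendrocytes of 2 WT (blue) and 2 Setd1a+/- libraries (orange). The upper row is higher and the lower row lower in both Setd1a+/- libraries, and none of the genes was called.

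Of the myelin list 22 members were tested, 6 with a positive fold, and 0 had an unadjusted p under 0.05 in edgeR or DESeq2, against 2.08% of all genes in edgeR. The median was -0.10, but -0.38 without Setd1a+/- replicate 1, with 8 members lower and 1 higher at an unadjusted p under 0.05 and 1 called. In that fit 820 of all 8183 genes had such a p and 52 were called. Without the library of 67 cells the median was 0.05. Mbp had a log2 fold change of -0.11 and Mog of -0.18. Of the 25 tested genes of cholesterol synthesis 17 had a positive fold with a median of 0.18, and 1, Mvd, had an unadjusted p under 0.05. That median turned to -0.07 without Setd1a+/- replicate 1, with 3 members lower at such a p, a share near that of all genes in the same fit, and was 0.28 without the library of 67 cells, with 4 higher, so that 1 library decided its direction. The list of H3K4 methylation enzymes had 18 members tested, a median of 0.06 (-0.18 without Setd1a+/- replicate 1 and -0.02 without the library of 67 cells) and 0 members under 0.05 in edgeR or DESeq2, with Setd1b at 0.45 and Kmt2a at -0.11. Genes of the tissue comparison were not called here, with Klk6 at 0.23, S100b at 0.17 and Ptgds at -0.20, each at an adjusted p of 0.9999.

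The difference of the genotype effect between striatum and PFC was tested as an interaction over all 8 libraries. Of 7820 genes 0 were called (0%) in edgeR, and 95 (1.21%) had an unadjusted p under 0.05. DESeq2 called 0, with 18 at an unadjusted p under 0.05. The count of calls was 0 under every alternative run, leaving out each of the 8 libraries included.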

How the data were processed

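Droplet libraries of single cells were processed by the authors with Cell Ranger 3.0.2 against mm10 and annotated with Seurat 3.2.0, keeping cells of at least 800 genes and at most 10% mitochondrial RNA. The deposited matrices hold raw UMI counts of all barcodes, and the deposited meta tables give each cell's library and type. The deposited normalized expression table and the table of excitatory subtypes were not used. Counts of the Oligo cells were summed per library, with 158863 to 2336295 UMIs in striatum. Tests used R 4.3.3 and edgeR 4.0.16 (TMM, filterByExpr with a minimum count of 10, quasi-likelihood F test, Benjamini-Hochberg adjustment), with DESeq2 1.42.0 as an alternative, and were tested on simulated data. The spread is that between pools of 2 mice. Each SE printed is derived, as the absolute log2 fold change divided by the square root of the edgeR F statistic. The genes named were the 12 of largest ratio over the other types and 8 more with newly formed cells left out, the 5 lowest, the 5 of smallest p in each direction between genotypes, and the 12 of largest fold in each direction between tissues among called genes without overlap and with at least 20 CPM, besides list members. Members and lists were chosen with earlier results of these data known. Replicate numbers pair the samples within a tissue, since by the methods a biological replicate held 1 WT and 1 Setd1a+/- sample. The replicate differences of both genotypes correlated over genes at 0.164 in striatum and 0.378 in PFC. A link of replicate numbers between the tissues is not given, and the block in the tissue comparison assumes one. Gene positions came from GENCODE, on GRCm38. Levels of genes that overlap or have near copies, the hemoglobin and antibody genes among them, may be split by the counting. Some items, a few genes named by these rules among them, are not reported here.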

Additional observations from a re-analysis of the deposited data

Results flagged for a closer look

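Among 68 sets of 4 libraries, 6 held a library far from the other 3 by Dixon's test on log2 levels, and chance gives about 1 in 20. In striatal oligodendrocytes both concerned the library of 67 cells, Setd1a+/- replicate 2: Cx3cr1 was at 6.29 CPM there, which is 1 UMI, and at 1.69 to 2.13 CPM in the others, and C1qb at 0 CPM there, with no UMI, and at 9.03 to 10.3 CPM in the others. In PFC oligodendrocytes Opalin was at 3784 CPM in Setd1a+/- replicate 1 and at 2589 to 2758 CPM in the others, so that the library farthest from the striatal range set it apart. The other 3 were neuronal genes at 0 CPM in 3 PFC libraries: Penk at 7.39 CPM, Cartpt at 2.46 CPM and Pde1b at 3.69 CPM, all in WT replicate 2. The rate of 1 in 20 assumes continuous levels. It does not hold for sets with libraries at 0 or at 1 UMI, which are all of those flagged except Opalin.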

How the results depend on the processing

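Between genotypes, 0 genes were called with DESeq2, without TMM, at 100 or more UMIs, after thinning to the smallest library, without cells holding another type's markers, among genes above their low barcode level, and with a fold above 1.5 or none. With no count filter 15 were called and with the replicate block 10. Leaving out 1 library gave 3 to 52. Genes at an unadjusted p under 0.05 numbered 167, and 16 with DESeq2, 342 with no filter, 88 at 100 or more UMIs, 71 after thinning, 81 above the low barcode level and 66 to 820 without 1 library. The 124 tissue calls became 498 with no filter, 217 with the replicate block, 34 after thinning, 78 above the low barcode level, 187 with no fold cutoff or a fold above 1.5, 40 in WT libraries, 0 in Setd1a+/- libraries, 23 in cells without and 10 in cells with a Klk6 UMI, and 48 to 223 without 1 library. The cause was not tested, beyond fewer cells, genes or libraries in some fits. In refits of the genes named between tissues, 403 kept the call and 55 lost it, and between genotypes 82 stayed uncalled and 16 gained a call, none with a change of direction. Not every gene entered each refit: between tissues 16 were counted without cells holding another type's markers, against 32 with DESeq2. The replicate block changed no call of a gene named between tissues, and between genotypes it called Gm28322, H2afj, Crip1 and Apoe. The library of 67 cells has the lowest depth, and the genotype calls moved with either Setd1a+/- library left out.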
